A study of Mus musculus with 8 samples.

Results

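Interferon-stimulated genes varied together from tumor to tumor, inside both groups of the study, and no difference between the groups was detected. The set described here holds 43 listed mouse genes of the type I and type II interferon response. The list was chosen from the log2 levels of these same 8 tumors, over which the genes varied together, so their ranges and their correlations are given below as a description, with no test. Of the 43, 40 had a probe set annotated with their symbol alone and were measured, out of 22180 genes measured in all. The probe sets of *Gbp2* and *Dtx3l* were shared with *Gbp2b* and *Parp9*, and *Ifi44* was not matched to a probe set, so these 3 genes are not analysed here. Of the 40, 8 lie on chromosome 11, 5 on chromosome 16 and 4 each on chromosomes 5 and 6. The IFIT, OAS, Mx, GBP and IRG genes are families of related sequence, and whether their probe sets share signal was not tested.

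RNA was extracted from frozen tumors and hybridized to 1 Affymetrix mouse gene array per tumor, for 4 DTC tumors and 4 mammary tumors. DTC tumors grew under the skin of NSG mice after bone marrow cells of BALB-neuT mice, disseminated tumor cells (DTC) among them, had been injected. BALB-neuT mice express an activated rat *Her2/neu* oncogene from the mammary tumor virus promoter. The donors were late donors with invasive carcinomas according to the methods, whereas the labels call the cells early, and the study used both pools and single donors without saying which gave each array. Mammary tumors are called primary BALB-neuT tumors in the array methods, whereas the study's results describe them as grown in NSG mice, so their host is not settled by the sources. The labels name TUBO cells, a BALB-neuT mammary tumor line, in which case all 4 mammary tumors were 1 line. The NSG host has no mature T, B or NK cells, and the labels give injection in matrigel with bFGF for both kinds of cell. No source used here says whether the tumors of a group grew in separate mice, so p-values reflect only how much these tumors differ, which may in part be technical.

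Interferons are secreted when a cell senses foreign or misplaced nucleic acids. They bind receptors on the same or neighbouring cells, JAK kinases then activate STAT proteins, and the STAT proteins enter the nucleus with IRF9 to switch on a large set of genes. Type I interferon acts mainly through a STAT2 and IRF9 complex that binds the interferon-stimulated response element (ISRE). Type II interferon (IFN-γ) acts mainly through STAT dimers that bind the gamma-activated site (GAS). The products sense nucleic acids, degrade or trap viral RNA, attach the ubiquitin-like ISG15 to other proteins or present antigen. In mammary tumors such genes are known to be active in tumor cells as well as in infiltrating cells.

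Promoter sequences were read from RefSeq (GRCm38.p6), in windows of 300 bases, 250 before and 50 after the start of the gene. Of the 40 measured genes, 30 had an entry. The 10 without one are *Dhx58*, *Zbp1*, *Usp18*, *Oas2*, *Mx1*, *Mx2*, *Rtp4*, *Iigp1*, *Parp9* and *Parp14*. The core of the ISRE, a GAAA repeated after 2 bases of any kind, was searched on both strands. It occurred for 16 of the 30 genes (53.3%), against 3.99% of 27025 genes. A gene was counted if any of its windows held the core. The core of the GAS, TTCNNNGAA, which reads the same on both strands, occurred in 8 of the 30 (26.7%), against 9.55% of all. Both cores were found for 5 genes and neither for 11. These matches are letters in a window and not evidence of binding.

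The promoters of 6 genes are shown because they cover the kinds of match seen, from GAS alone to both cores, and each is the 250 bases before the start, 5′ to 3′, with the matching letters in capitals. *Irf1* (chr11:53769764-53770013, plus strand) held a GAS core and no ISRE core.
Irf1: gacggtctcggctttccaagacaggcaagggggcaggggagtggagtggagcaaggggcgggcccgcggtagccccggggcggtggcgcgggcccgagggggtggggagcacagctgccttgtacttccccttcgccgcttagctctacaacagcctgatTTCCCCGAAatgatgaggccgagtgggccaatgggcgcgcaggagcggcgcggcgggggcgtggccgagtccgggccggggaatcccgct
*Isg15* (chr4:156200819-156201068, minus strand) held 3 overlapping ISRE cores, *Ifit1* (chr19:34640639-34640888, plus strand) held 2 separate ones, and *Rsad2* (chr12:26456453-26456702, minus strand) held 1.
Isg15: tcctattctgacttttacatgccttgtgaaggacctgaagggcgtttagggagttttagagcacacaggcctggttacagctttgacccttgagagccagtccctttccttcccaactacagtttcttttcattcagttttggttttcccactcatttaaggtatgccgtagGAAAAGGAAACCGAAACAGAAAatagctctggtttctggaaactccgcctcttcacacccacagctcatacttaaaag
Ifit1: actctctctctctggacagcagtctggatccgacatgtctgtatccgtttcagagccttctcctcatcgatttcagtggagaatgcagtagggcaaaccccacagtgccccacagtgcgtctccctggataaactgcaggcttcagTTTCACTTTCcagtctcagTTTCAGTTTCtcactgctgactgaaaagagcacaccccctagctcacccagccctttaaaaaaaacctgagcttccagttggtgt
Rsad2: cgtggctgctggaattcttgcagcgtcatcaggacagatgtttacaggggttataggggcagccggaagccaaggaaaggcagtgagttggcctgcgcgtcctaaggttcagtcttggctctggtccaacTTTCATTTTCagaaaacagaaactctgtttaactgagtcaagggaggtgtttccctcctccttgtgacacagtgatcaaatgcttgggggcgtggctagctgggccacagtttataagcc
*Gbp3* (chr3:142559794-142560043, plus strand) held 2 overlapping ISRE cores, and *Igtp* (chr11:58199306-58199555, plus strand) held a GAS core and an ISRE core that did not overlap.
Gbp3: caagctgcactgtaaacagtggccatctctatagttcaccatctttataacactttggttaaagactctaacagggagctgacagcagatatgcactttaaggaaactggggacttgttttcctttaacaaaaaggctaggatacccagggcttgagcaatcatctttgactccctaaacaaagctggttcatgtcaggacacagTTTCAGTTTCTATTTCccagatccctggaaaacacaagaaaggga
Igtp: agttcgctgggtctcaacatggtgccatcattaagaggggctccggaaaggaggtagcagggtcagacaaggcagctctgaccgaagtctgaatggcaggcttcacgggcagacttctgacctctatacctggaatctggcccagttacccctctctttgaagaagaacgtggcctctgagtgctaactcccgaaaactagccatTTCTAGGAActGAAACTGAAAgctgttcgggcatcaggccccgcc
Of these 6 genes, *Irf1* was also the one that followed the others least over the tumors, as its values below show. *Ifit2* and *Ifi35*, whose windows likewise held a GAS core and no ISRE core, followed closely. Each had a correlation of 0.98 with the mean of the other genes, a measure described below. Across the 30 genes with an entry, the 16 with an ISRE core had a median range of 2.34 among DTC tumors and 2.09 among mammary tumors (log2). The 14 without one had 2.20 and 1.81. The 8 genes with a GAS core had 2.30 and 2.12, and the 22 without one had 2.37 and 1.92. These medians are a description with no test.

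Each tumor was first summarized by the mean log2 level of the 40 genes. DTC tumors 1 to 4 had means of 8.47, 8.62, 6.81 and 9.16, and mammary tumors 1 to 4 had 7.98, 7.81, 7.55 and 9.45. DTC tumor 3 was thus the lowest of all 8 tumors and mammary tumor 4 the highest, and the groups overlapped. The median level of all genes was between 5.80 and 5.84 in the DTC tumors and between 5.79 and 5.82 in the mammary tumors after the normalization, which brings the arrays to a common distribution. DTC tumor 4 stood second. DTC tumors 1 and 2 lay between it and the mammary tumors 1, 2 and 3.

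Gene by gene, the order was nearly the same. Among DTC tumors, tumor 4 was highest for 37 of the 40 genes, against 25.7% of all genes, and tumor 3 was lowest for 38, against 27.7% of all genes. *Irf1*, *Iigp1* and *Irgm1* were highest in DTC tumor 2, and *Irf1* and *Ifit3* were lowest in DTC tumor 1. Among mammary tumors, tumor 4 was highest for all 40 genes (28.9% of all genes), and tumor 3 was lowest for 32 (23.6% of all genes) and tumor 2 for the other 8. A pattern with DTC tumor 4 highest, DTC tumor 3 lowest and mammary tumor 4 highest was shown by 36 of the 40 genes and by 4.2% of all genes. These shares are given for scale only, since the genes were listed for varying together.

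**Figure D1:**
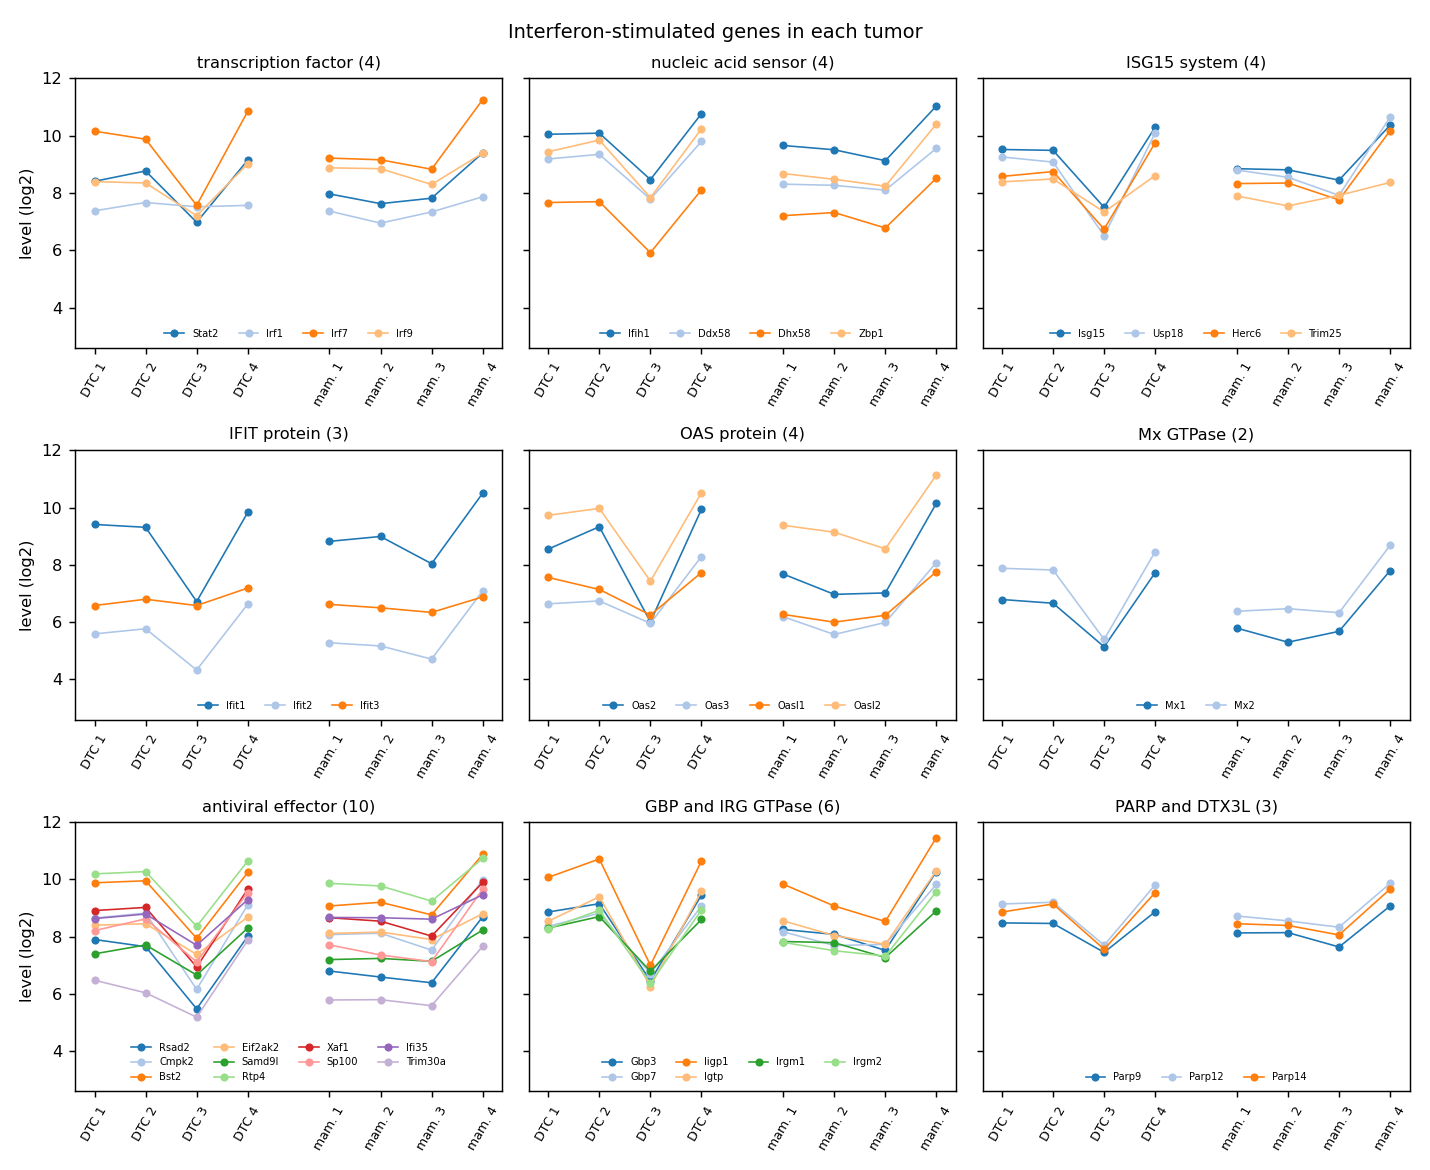
Log2 level of each of the 40 interferon-stimulated genes (vertical axis) in each tumor (horizontal axis), with 1 panel per role and DTC tumors left of mammary tumors (mam.). Each point is 1 array and lines join the values of a gene within a group, whose tumors have no order. In nearly every panel DTC tumor 3 is the low point and mammary tumor 4 the high point.

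Transcription factors of the response were among the genes that moved most and least. *Irf7*, the factor that amplifies type I interferon production, had log2 levels of 10.16, 9.88, 7.57 and 10.85 in DTC tumors 1 to 4 and 9.22, 9.16, 8.83 and 11.26 in mammary tumors 1 to 4. The highest DTC tumor stood 9.67-fold above the lowest, and the highest mammary tumor 5.39-fold above the lowest. *Stat2*, the signal transducer specific to type I and type III interferon, had 8.41, 8.77, 6.98 and 9.15 in DTC tumors and 7.97, 7.63, 7.82 and 9.40 in mammary tumors. Both genes were lowest in DTC tumor 3 and highest in mammary tumor 4. *Irf9*, the DNA-binding partner of *Stat2*, had 8.40, 8.35, 7.21 and 9.02 in DTC tumors and 8.88, 8.85, 8.30 and 9.39 in mammary tumors. Mammary tumors 1, 2 and 4 lay above DTC tumors 1 to 3 for this gene. *Irf1*, a factor best known as an IFN-γ target, did not share the pattern, with 7.38, 7.67, 7.52 and 7.57 in DTC tumors and 7.37, 6.95, 7.34 and 7.87 in mammary tumors. Its DTC tumors differed by no more than 0.29, and DTC tumor 3 was not low for it.

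The sensors of nucleic acids followed the tumors closely. *Ifih1*, which encodes the long double-stranded RNA sensor MDA5, had 10.05, 10.09, 8.47 and 10.77 in DTC tumors and 9.66, 9.51, 9.13 and 11.04 in mammary tumors. *Zbp1*, a sensor of Z-form nucleic acids that can start cell death, had 9.44, 9.85, 7.84 and 10.24 in DTC tumors and 8.68, 8.48, 8.24 and 10.41 in mammary tumors. The highest tumor exceeded the lowest 4.91-fold in DTC and 3.76-fold in mammary tumors for *Ifih1*, and 5.27-fold and 4.49-fold for *Zbp1*. *Ddx58*, the RIG-I sensor of RNA ends, ranged between 7.79 and 9.80 in DTC tumors and between 8.10 and 9.56 in mammary tumors. *Dhx58*, which encodes their regulator LGP2, ranged between 5.92 and 8.11 in DTC tumors and between 6.78 and 8.52 in mammary tumors. All 4 sensors were lowest in DTC tumor 3, and *Ddx58* was the exception in being highest in DTC tumor 4 rather than mammary tumor 4.

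Genes of the ISG15 system, in which a ubiquitin-like protein is joined to and removed from other proteins, showed some of the widest ranges. *Isg15* itself had 9.52, 9.49, 7.50 and 10.30 in DTC tumors and 8.85, 8.81, 8.45 and 10.37 in mammary tumors. *Usp18*, the enzyme that removes ISG15 and damps receptor signalling, had 9.26, 9.08, 6.51 and 10.10 in DTC tumors and 8.80, 8.55, 7.92 and 10.65 in mammary tumors. *Herc6*, which encodes the main mouse ISG15 ligase, had 8.58, 8.75, 6.74 and 9.76 in DTC tumors and 8.33, 8.35, 7.76 and 10.18 in mammary tumors. In DTC tumors the highest tumor exceeded the lowest 12.02-fold for *Usp18*, 8.10-fold for *Herc6* and 6.94-fold for *Isg15*, and in mammary tumors 6.65-fold, 5.36-fold and 3.79-fold. *Trim25*, a ubiquitin ligase that acts with RIG-I, moved less, between 7.34 and 8.61 in DTC tumors and between 7.55 and 8.37 in mammary tumors, and its lowest mammary tumor was tumor 2.

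The IFIT proteins bind foreign RNA, and their 3 genes differed in range. *Ifit1* had 9.41, 9.31, 6.72 and 9.83 in DTC tumors and 8.82, 8.99, 8.04 and 10.50 in mammary tumors, so DTC tumor 3 was set far below the other DTC tumors. *Ifit2* had 5.59, 5.77, 4.33 and 6.63 in DTC tumors and 5.28, 5.17, 4.71 and 7.09 in mammary tumors. *Ifit3* had 6.58, 6.80, 6.58 and 7.19 in DTC tumors and 6.62, 6.50, 6.34 and 6.88 in mammary tumors, and DTC tumors 1 and 3 were level for it. The fold between the highest and the lowest DTC tumor was 8.63 for *Ifit1* and 1.52 for *Ifit3*, although the *Ifit3* window holds 2 ISRE cores, as that of *Ifit1* does.

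Enzymes that make the short oligoadenylates which activate RNA degradation, and their relatives without that activity, included the widest range of all. *Oas2* had 8.55, 9.33, 6.01 and 9.94 in DTC tumors and 7.68, 6.97, 7.02 and 10.15 in mammary tumors. The highest DTC tumor was 15.3-fold above the lowest and the highest mammary tumor 9.04-fold above the lowest, the largest folds of the 40 genes in each group. *Oasl2*, an OAS-like protein, had 9.73, 9.97, 7.43 and 10.52 in DTC tumors and 9.38, 9.14, 8.56 and 11.14 in mammary tumors. *Oas3* had 6.64, 6.74, 5.96 and 8.29 in DTC tumors and 6.19, 5.57, 5.99 and 8.08 in mammary tumors, and mammary tumor 2 was its lowest tumor of all 8. *Oasl1*, a repressor of *Irf7* translation, had 7.56, 7.14, 6.25 and 7.73 in DTC tumors and 6.27, 6.0, 6.24 and 7.76 in mammary tumors. For *Oas3* and *Oasl1*, and for *Oas2* by a narrow margin, the lowest mammary tumor was tumor 2 and not tumor 3.

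The Mx GTPases, which block virus replication, had a gap between mammary tumor 4 and the other mammary tumors. *Mx2* had 7.88, 7.82, 5.40 and 8.46 in DTC tumors and 6.38, 6.47, 6.33 and 8.68 in mammary tumors, so mammary tumors 1 to 3 lay close together. *Mx1* had 6.79, 6.66, 5.14 and 7.73 in DTC tumors and 5.79, 5.30, 5.68 and 7.80 in mammary tumors. The fold between the highest and lowest tumor was 8.33 for *Mx2* and 6.03 for *Mx1* in DTC tumors, and 5.09 and 5.64 in mammary tumors. DTC tumors 1 and 2 exceeded the mammary tumors 1 to 3 for both genes, as they did for 36 of the 40 genes. That count was not made over all genes.

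Another 10 antiviral effectors had a median range of 2.36 in DTC tumors and 1.97 in mammary tumors on the log2 scale. *Cmpk2*, a mitochondrial nucleotide kinase encoded next to *Rsad2*, had 8.65, 8.82, 6.16 and 9.11 in DTC tumors and 8.07, 8.12, 7.53 and 9.99 in mammary tumors. *Rsad2*, which encodes viperin, an enzyme that makes a chain-terminating nucleotide, had 7.90, 7.65, 5.48 and 8.01 in DTC tumors and 6.80, 6.59, 6.39 and 8.69 in mammary tumors. For both genes DTC tumors 1, 2 and 4 lay close together, and DTC tumor 3 lay far below them. *Xaf1*, a protein that promotes apoptosis, had 8.91, 9.02, 6.94 and 9.66 in DTC tumors and 8.66, 8.54, 8.02 and 9.89 in mammary tumors. *Trim30a*, a mouse TRIM protein, had 6.48, 6.04, 5.19 and 7.87 in DTC tumors and 5.79, 5.80, 5.59 and 7.66 in mammary tumors. *Bst2*, which encodes the virus-tethering protein tetherin, spanned 7.94 to 10.24 in DTC tumors and 8.76 to 10.87 in mammary tumors. *Trim30a* stood out by the distance of both highest tumors from the rest of their groups. The narrowest ranges of these 10 genes were those of *Eif2ak2*, the kinase PKR that stops translation, with 1.30 in DTC and 0.90 in mammary tumors, and of *Ifi35*, with 1.59 and 0.85. *Samd9l*, *Rtp4* and *Sp100* had ranges of 1.64, 2.28 and 2.41 in DTC tumors and 1.09, 1.48 and 2.53 in mammary tumors. *Sp100* had 3 further probe sets with its symbol, which correlated with the mean of the 40 genes at 0.85, 0.80 and 0.92, and *Ifi35* had 1 further, at 0.85.

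The GBP and IRG GTPases, which attack the vacuoles of intracellular parasites and are strongly induced by IFN-γ, behaved like the others with a shift between DTC tumors 1 and 2. *Iigp1* had 10.07, 10.71, 7.0 and 10.64 in DTC tumors and 9.83, 9.07, 8.53 and 11.46 in mammary tumors. *Igtp* had 8.54, 9.39, 6.26 and 9.58 in DTC tumors and 8.55, 8.04, 7.73 and 10.30 in mammary tumors. *Gbp3* had 8.86, 9.15, 6.46 and 9.45 in DTC tumors and 8.25, 8.08, 7.52 and 10.27 in mammary tumors. DTC tumor 2 exceeded DTC tumor 1 for all 3 genes and exceeded DTC tumor 4 for *Iigp1*. The highest tumor exceeded the lowest 13.1-fold for *Iigp1*, 10.01-fold for *Igtp* and 7.97-fold for *Gbp3* in DTC tumors, and 7.64-fold, 5.95-fold and 6.70-fold in mammary tumors. *Gbp7*, *Irgm1* and *Irgm2* had ranges of 2.36, 1.91 and 2.56 in DTC tumors and 2.14, 1.63 and 2.25 in mammary tumors.

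*Parp9*, *Parp12* and *Parp14* encode ADP-ribose transferases of the antiviral response, and these 3 genes were lowest in DTC tumor 3 and highest in mammary tumor 4. *Parp12* had 9.14, 9.20, 7.70 and 9.81 in DTC tumors and 8.72, 8.55, 8.33 and 9.86 in mammary tumors. *Parp14* had 8.86, 9.14, 7.56 and 9.54 in DTC tumors and 8.45, 8.39, 8.06 and 9.66 in mammary tumors. DTC tumor 2 exceeded DTC tumor 1 for both, whereas the same tumors were nearly level for *Parp9*, with 8.46 in DTC tumor 2 and 8.48 in DTC tumor 1. *Parp9* spanned 1.42 on the log2 scale in each group.

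Set side by side, the ranges were wider than those of most genes in both groups. The median range of the 40 genes was 2.34 on the log2 scale, or 5.06-fold, among DTC tumors and 2.09, or 4.25-fold, among mammary tumors. Over all 22180 genes the median range was 0.37 (1.30-fold) among DTC tumors and 0.35 (1.27-fold) among mammary tumors. A range of at least 1 was found for 38 of the 40 genes among DTC tumors (5.17% of all genes), for 35 among mammary tumors (3.32% of all genes) and for 35 in both (1.46% of all genes). *Irf1* and *Ifit3* were the 2 genes under 1 among DTC tumors. The range among DTC tumors exceeded that among mammary tumors for 35 of the 40 genes, a count not made over all genes.

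In each group 1 tumor set most of this range. Without DTC tumor 3 the median range among DTC tumors was 0.68, against 0.28 for all genes over the same 3 tumors, and 9 of the 40 genes kept a range of at least 1 (2.33% of all genes). Without mammary tumor 4 the median range among mammary tumors was 0.48, against 0.26 for all genes, and 1 of the 40 genes kept a range of at least 1 (1.17% of all genes). DTC tumors 1 and 2 alone differed by a median of 0.18 and mammary tumors 1 and 2 by 0.14, close to the 0.15 of all genes in both pairs. Fewer tumors give narrower ranges by construction, for the 40 genes as for all genes. DTC tumor 3 lay below all 4 mammary tumors for 36 of the 40 genes, and mammary tumor 4 lay above all 4 DTC tumors for 34. The shares of all genes with these positions were not computed.

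**Figure D2:**
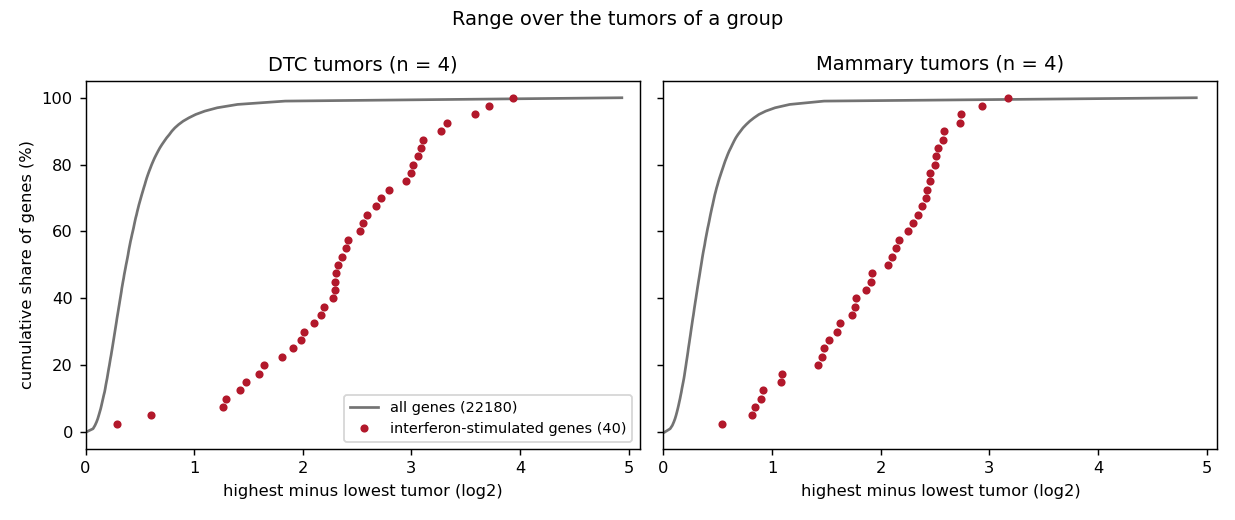
Range over the 4 tumors of a group (horizontal axis, highest minus lowest tumor, log2) against the cumulative share of genes in percent (vertical axis), for DTC tumors and for mammary tumors. Points are the 40 interferon-stimulated genes and the grey line is all 22180 genes. The median of the 40 genes lies at 2.34 among DTC tumors and 2.09 among mammary tumors, against 0.37 and 0.35 for all genes.

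How closely each gene followed the others was measured by the correlation of its 8 values with the mean of the other 39, after the mean of each group had been taken out. The 8 points come from 8 arrays, and all genes share each array. The correlation was at least 0.95 for 33 of the 40 genes, at least 0.9 for 37 and at least 0.7 for 39, whereas 7.71% of all genes reached 0.7 with the mean of the 40. *Oas3* (0.88), *Ifit3* (0.81) and *Irf1* (0.55) were the 3 below 0.9, and *Trim30a* (0.92) came next. The genes nearest to the common course were *Ddx58*, *Ifih1* and *Parp12*, with 0.998, 0.997 and 0.997. The median correlation was 0.986. Without DTC tumor 3 and mammary tumor 4, the tumors farthest from the median of the means, it was 0.88 and 35 of the 40 genes still reached 0.7, the lowest correlation then being 0.14.

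The steepness differed more than the course. For a rise of 1 log2 unit in the mean of the other genes, *Oas2* rose by 1.74, *Iigp1* by 1.61, *Usp18* by 1.47 and *Igtp* by 1.43. *Trim25* rose by 0.46, *Eif2ak2* by 0.51, *Ifit3* by 0.22 and *Irf1* by 0.16. The genes of the GBP and IRG group had the highest median slope of the roles with at least 3 genes, 1.28, followed by the ISG15 system with 1.17, and the transcription factors the lowest, 0.77.

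No difference between DTC and mammary tumors was detected for these genes. In limma, run on 18877 probe sets whose interquartile range was above 0.25, 39 of the 40 genes could be tested (*Irf1* was below that range) and 0 of the 39 passed an adjusted p of 0.05 together with a change of 1 log2 unit or more, against 0.132% of all probe sets tested. At an unadjusted p of 0.05 limma also called 0 of the 39, against 14.8% of all. Single genes reached that unadjusted level in limma when 1 tumor was left out, with adjusted p of 0.243 to 0.322. Without DTC tumor 3 they were *Trim25*, *Ddx58* and *Oasl1*, higher in DTC tumors (3 of 40 genes, against 3069 of 18209 probe sets). Without mammary tumor 4 it was *Oasl1*, again higher in DTC tumors (1 of 37, against 2370 of 18299). Without DTC tumor 4 it was *Irf9*, lower in DTC tumors (1 of 37, against 2457 of 18331). Each of these shares lay below that of all probe sets tested. For 0 of the 40 genes did the 4 tumors of one group lie apart from those of the other, whereas 3.89% of all genes had all DTC tumors above all mammary tumors and 5.76% had them below. The genes were listed for varying together over these same tumors, and such spread widens the standard errors and makes the groups overlap. They also share 1 course, so the 39 are not independent of each other. These counts are thus no evidence that the groups are alike. The median difference, DTC minus mammary tumors, was 0.07 on the log2 scale (0.01 over all genes). By their means, 24 of the 40 genes were higher in DTC tumors, as were 11468 of all 22180 genes.

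These intervals were wide, because the spread within the groups was large. The standard error of the difference was 0.19 to 0.86, with a median of 0.56, and the median 95% interval ran from -1.09 to 1.22. The lowest adjusted p belonged to *Irf9*, which averaged 8.24 ± 0.75 in DTC tumors and 8.86 ± 0.45 in mammary tumors (SD, n = 4 each), with a log2 fold change of -0.61, a standard error of 0.35 and an adjusted p of 0.469 in limma. *Oasl1* had the highest fold change, 0.60 with a standard error of 0.41 and an adjusted p of 0.557, and averaged 7.17 ± 0.66 in DTC tumors and 6.57 ± 0.80 in mammary tumors. *Oas2* averaged 8.46 ± 1.73 in DTC tumors and 7.96 ± 1.5 in mammary tumors, and its interval ran from -1.40 to 2.41. *Irf7* averaged 9.62 in both groups, with an SD of 1.42 in DTC tumors and 1.11 in mammary tumors. The sign of the median difference rested on single tumors: it was 0.53 without DTC tumor 3, 0.45 without mammary tumor 4 and -0.21 without DTC tumor 4.

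**Figure D3:**
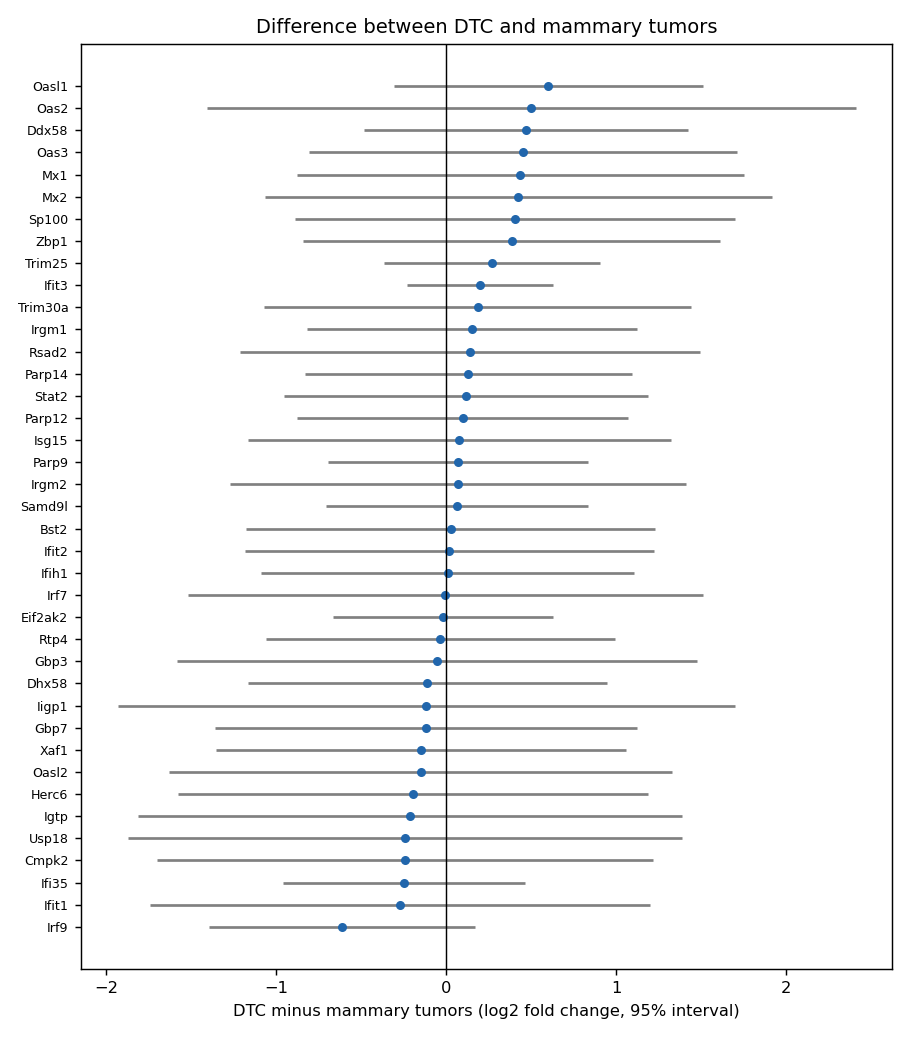
Log2 fold change of DTC over mammary tumors (horizontal axis) for the 39 interferon-stimulated genes tested with limma (vertical axis), ordered by fold change, with 95% intervals as bars and 4 tumors per group. All 39 intervals include 0.

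Other interferon-stimulated genes, from a separate list of 63 of which 54 were measured, followed the same tumors. This list and those below were chosen with earlier results of these data known, so they are no independent check. Of the 54, 46 had a correlation of at least 0.7 with the mean of the 40 genes (7.71% of all genes). DTC tumor 4 was highest, DTC tumor 3 lowest and mammary tumor 4 highest for 44 of them (4.2% of all genes). Their median range was 1.71 in DTC tumors and 1.62 in mammary tumors. *Ifi44l*, an interferon-induced gene of little known function, had 5.11, 5.83, 3.51 and 8.45 in DTC tumors and 5.79, 4.92, 4.93 and 9.58 in mammary tumors. *Apol9b*, an apolipoprotein L gene, had 8.62, 8.84, 5.38 and 9.38 in DTC tumors and 8.11, 7.89, 7.31 and 10.18 in mammary tumors. The 8 that did not reach 0.7 were *Oas1c*, *Ifi27*, *Gbp6*, *Ifi205*, *Ifitm1*, *Ifitm2*, *Cxcl11* and *Isg20*. *Ifi27* was not high in DTC tumor 4 or mammary tumor 4, with 10.39, 10.31, 9.39 and 9.46 in DTC tumors and 10.67, 10.40, 10.06 and 9.32 in mammary tumors. Its lowest tumor was DTC tumor 3 in the DTC group and mammary tumor 4 in the mammary group.

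In limma 53 of these 54 genes were tested, and 0 passed the adjusted p. At an unadjusted p of 0.05 in limma, 2 of the 53 were higher in DTC tumors, a smaller share than the 6.47% of all probe sets tested. They were the chemokine genes *Cxcl10* and *Cxcl11*, both ligands of the receptor CXCR3 on lymphocytes. *Cxcl10* had 6.62, 6.66, 5.74 and 7.50 in DTC tumors and 5.17, 5.20, 5.63 and 6.70 in mammary tumors, with an adjusted p of 0.316 in limma. *Cxcl11* had 5.02, 5.14, 5.32 and 6.19 in DTC tumors and 4.78, 4.42, 4.83 and 4.82 in mammary tumors, with an adjusted p of 0.261 in limma. DTC and mammary tumors overlapped for *Cxcl10*. For *Cxcl11* all DTC tumors lay above all mammary tumors, as for 3.89% of all genes. Both genes are named after their values were seen.

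Antigen presentation by MHC class I, a pathway that interferons induce, moved in parallel. All 8 measured genes of 9 listed reached a correlation of 0.7 with the mean of the 40 genes (7.71% of all genes). Their median range was 2.18 in DTC tumors and 1.48 in mammary tumors. *Tap1*, a subunit of the peptide transporter, had 9.46, 10.02, 7.45 and 10.41 in DTC tumors and 9.13, 8.79, 8.90 and 11 in mammary tumors. *Psmb8*, a subunit of the immunoproteasome, had 9.23, 9.58, 7.44 and 10.14 in DTC tumors and 8.82, 8.41, 8.28 and 10.40 in mammary tumors. The mean level of the 8 genes was 9.06, 9.54, 7.93 and 9.86 in DTC tumors and 9.0, 8.75, 8.74 and 10.27 in mammary tumors, with the same lowest and highest tumors as the 40 genes. In limma 0 of the 8 passed the adjusted p or an unadjusted p of 0.05.

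Upstream parts of the pathway mostly did not vary in this way. The 6 interferon receptor genes had a median range of 0.28 in DTC tumors and 0.32 in mammary tumors, and 0 of 6 followed the 40 genes. *Ifngr1*, the ligand-binding chain of the IFN-γ receptor, had 8.17, 8.11, 8.57 and 8.44 in DTC tumors and 8.43, 8.29, 8.61 and 8.41 in mammary tumors. *Ifngr2*, its signalling chain, had 9.21, 8.93, 9.19 and 9.11 in DTC tumors and 9.11, 9.14, 8.68 and 8.83 in mammary tumors. Of 5 measured JAK and STAT genes, *Stat2* alone followed, and it is itself 1 of the 40. Among mammary tumors all 5 were highest in tumor 4, as 28.9% of all genes were. Among DTC tumors 2 of the 5 were highest in tumor 4 and 1 was lowest in tumor 3. *Jak1*, a kinase shared by the type I and type II receptors, had 9.49, 9.43, 9.47 and 9.5 in DTC tumors and 9.79, 9.71, 9.79 and 10.30 in mammary tumors. For *Jak1* all DTC tumors lay below all mammary tumors, as for 5.76% of all genes. In limma its adjusted p was 0.305 and its unadjusted p 0.0322. Of all probe sets tested, 8.28% were lower in DTC tumors at an unadjusted p of 0.05 in limma. *Jak2*, used by the IFN-γ receptor, ranged by 0.36 in DTC tumors and 0.48 in mammary tumors. Of 4 interferon regulatory factor genes outside the set, 0 followed, and the lymphoid and myeloid factors *Irf4* and *Irf8* stayed between 4.21 and 4.95 and between 6.03 and 6.6 in DTC tumors, and between 4.14 and 4.95 and between 6.0 and 6.27 in mammary tumors.

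Genes of interferons themselves had mostly low levels and did not share a course. The 19 measured genes had a median range of 0.51 in DTC tumors and 0.50 in mammary tumors, above the 0.37 and 0.35 of all genes. They had a mean level between 4.54 and 4.6 in DTC tumors and between 4.51 and 4.57 in mammary tumors, and 12 of them, *Ifnb1* and *Ifng* included, were below 5 in every tumor. *Ifnb1*, the gene of interferon-β, had 3.79, 2.99, 2.79 and 3.49 in DTC tumors and 3.24, 3.07, 2.50 and 3.37 in mammary tumors. *Ifnk*, the interferon-κ gene, was the 1 of 19 that reached a correlation of 0.7, with 3.95, 4.41, 3.15 and 3.83 in DTC tumors and 3.45, 3.63, 3.49 and 3.90 in mammary tumors.  Among feedback inhibitors *Socs1* alone of 7 followed (0.78), while *Socs3* and *Ptpn2* had correlations of -0.69 and -0.63. Among 13 adaptors and kinases of nucleic acid sensing, *Samhd1*, an enzyme that degrades nucleotides and is itself interferon-induced, had 0.97, and *Aim2*, *Mavs* and *Tlr9* were the other 3 at 0.7 or above. *Samhd1* had 9.42, 9.60, 8.68 and 9.97 in DTC tumors and 9.16, 8.98, 9.04 and 10.46 in mammary tumors. *Tlr4*, the receptor for lipopolysaccharide, ran the other way with a correlation of -0.72.

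**Figure D4:**
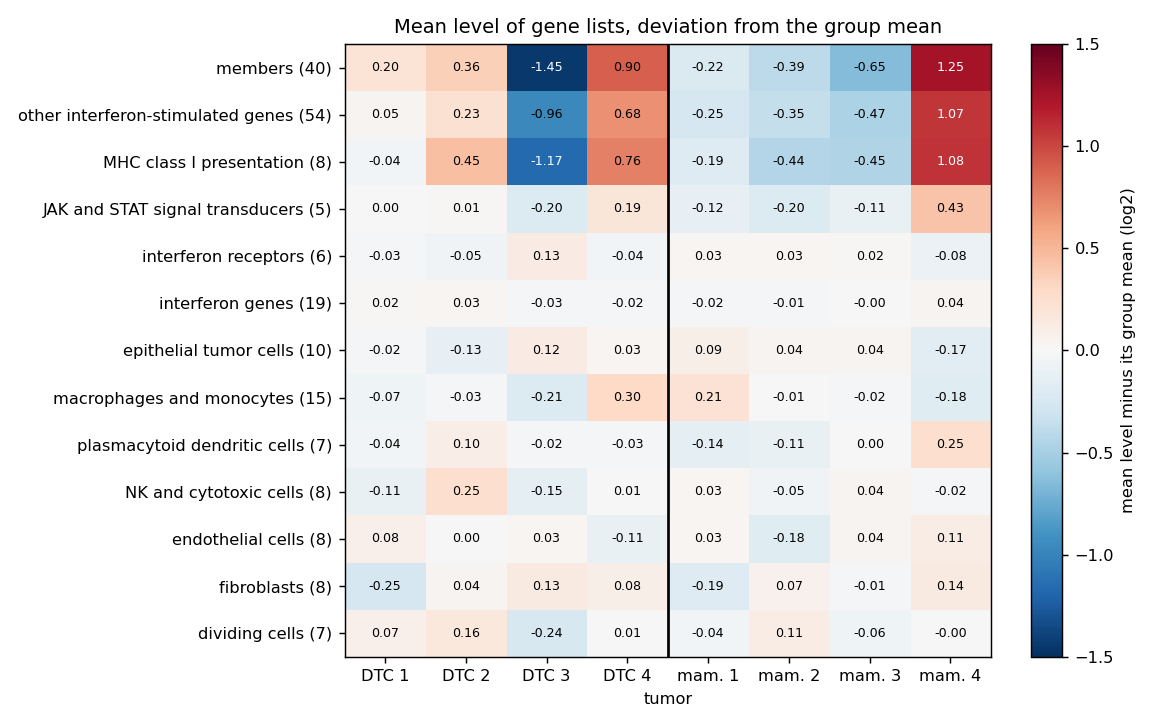
Mean log2 level of gene lists (rows, with the number of measured genes) in each tumor (columns, DTC tumors left of mammary tumors), as the deviation from the mean of its own group, in colour and as a number. The 40 interferon-stimulated genes deviate by -1.45 in DTC tumor 3 and by 1.25 in mammary tumor 4, and MHC class I genes deviate alike, whereas receptors, interferon genes and epithelial markers deviate far less.

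The labelled tissue was checked against markers of tumor and host cells. In bulk tumor RNA, fewer cells of a type and less RNA per cell cannot be told apart. Epithelial tumor markers had mean levels between 9.15 and 9.39 in DTC tumors and between 9.11 and 9.37 in mammary tumors, and 0 of 10 followed the 40 genes. Their mean was highest in DTC tumor 3 and lowest in mammary tumor 4, opposite to the 40 genes. *Cldn3* (-0.81), *Cdh1* (-0.73), *Elf3* (-0.73) and *Krt18* (-0.68) had the lowest correlations with the 40 genes. *Krt18*, a keratin of simple epithelia, had 11.58, 11.42, 11.75 and 11.70 in DTC tumors and 11.35, 11.48, 11.37 and 11.07 in mammary tumors. *Epcam*, the epithelial adhesion molecule, stayed between 11.22 and 11.33 in DTC tumors and between 11.49 and 11.72 in mammary tumors. *Krt19* was the 1 of the 10 below 5 in every tumor. The part of the epithelial content in the variation was not tested.

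Most markers of macrophages and monocytes had the lowest and highest DTC tumor in common with the 40 genes, and in mammary tumors they did not. Their mean level was 8.08, 8.12, 7.94 and 8.45 in DTC tumors and 8.18, 7.96, 7.94 and 7.78 in mammary tumors. DTC tumor 4 was thus the highest and DTC tumor 3 the lowest of its group, with 10 of 15 markers highest in DTC tumor 4 and 12 lowest in DTC tumor 3, whereas mammary tumor 4 was the lowest of the mammary tumors for the list. *Fcgr1*, *Ly6c2* and *Aif1* were the 3 of 15 that reached a correlation of 0.7, and the first 2 are themselves known to respond to interferon. *Cd14*, the lipopolysaccharide co-receptor, ran the other way (-0.73), with 9.57, 9.13, 11.44 and 10.26 in DTC tumors and 9.89, 9.43, 10.60 and 9.18 in mammary tumors, and *Itgam* had -0.58. The part of macrophage content in the DTC tumors was not tested. In mammary tumor 4 the macrophage list was 0.18 below its group mean while the 40 genes were 1.25 above theirs.

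Plasmacytoid dendritic cells, which make large amounts of type I interferon, had markers with a mean level between 4.75 and 4.89 in DTC tumors and between 4.65 and 5.04 in mammary tumors, the highest value being that of mammary tumor 4. Of these 7 markers *Ccr9*, *Klk1* and *Spib* were below 5 in every tumor, and 2 of 7 followed. Markers of NK and cytotoxic cells, which NSG mice lack and which make IFN-γ, had means between 4.24 and 4.63 in DTC tumors and between 4.10 and 4.19 in mammary tumors, with 6 of 8 below 5 in every tumor. The NK receptor gene *Ncr1* stayed between 3.98 and 4.13 in DTC tumors and between 3.71 and 4.06 in mammary tumors. T cell markers had means between 4.45 and 4.87 in DTC tumors and between 4.37 and 4.54 in mammary tumors, with 1 of 7 following. Fibroblast, endothelial and dividing-cell markers had 0 of 8, 1 of 8 and 1 of 7 genes that followed. Dividing-cell markers had means between 8.70 and 9.10 in DTC tumors and between 8.39 and 8.56 in mammary tumors, with DTC tumor 3 the lowest of its group. Neutrophil, conventional dendritic cell and B cell markers had 1 of 11, 0 of 6 and 1 of 5 that followed. The neutrophil list had mean levels of 4.49, 4.50, 4.99 and 4.67 in DTC tumors and 4.75, 4.71, 4.72 and 4.63 in mammary tumors, and DTC tumor 3 was the highest. *Ltf*, which encodes lactoferrin, a protein of neutrophil granules and of milk, had 6.04, 5.71, 9.69 and 7.24 in DTC tumors and 8.29, 7.93, 8.53 and 7.28 in mammary tumors. Its correlation with the 40 genes was -0.75, and that of *S100a8* was -0.78, whereas *Ly6g*, the 1 that followed, had 0.77. Of the 11 neutrophil markers 6 were below 5 in every tumor, *S100a8* and *Ly6g* among them. The mean of the list was not computed without *Ltf*. These genes, like the epithelial and macrophage markers singled out, were named after their values were seen. The part of these cells in the variation was not tested.

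Genes in none of the lists with the most similar course were ranked by the same correlation among 1727 genes with a mean level above 5 and a range of at least 0.5 in both groups. The first 12 were *Pnisr*, *H2-Q5*, *Rnf213*, *Pard6b*, *Vegfb*, *Gbp2b*, *Tstd2*, *Gm10499*, *Gm12250*, *Cfb*, *F830016B08Rik* and *Nsmaf*, with correlations between 0.980 and 0.997. Genes of the other lists were left out of this ranking, and some reached as high, such as *Apol9a* (0.998), *Psmb8* (0.997) and *Adar* (0.997). *H2-Q5*, an MHC class I gene, had 7.75, 8.41, 5.40 and 9.35 in DTC tumors and 7.29, 6.77, 6.43 and 9.97 in mammary tumors, a fold of 15.5 between its highest and lowest DTC tumor. *Rnf213*, a large ubiquitin ligase, had 9.51, 9.77, 8.36 and 10.18 in DTC tumors and 9.04, 9.09, 8.71 and 10.46 in mammary tumors. *Pnisr*, a serine- and arginine-rich nuclear protein gene, had 8.52, 8.63, 7.91 and 8.81 in DTC tumors and 8.11, 7.99, 7.96 and 8.67 in mammary tumors. *Pnisr* had the highest correlation of these 12, with ranges of 0.90 among DTC tumors and 0.70 among mammary tumors. With a correlation of at least 0.9 and a range of at least 1 in both groups, 105 genes were found (0.473% of all genes), of which 34 were of the 40, 28 of the other interferon-stimulated list, 6 of the MHC class I list and 36 in none of the lists.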

How the data were processed

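The authors normalized 8 array scans with the sketch-quantile option of oneChannelGUI, and the deposited table holds log2 levels of 41345 probe sets. Versions and the step from probes to probe sets are not given in the sources. The number of arrays, 4 per group, limits the precision. Probe sets were named from the platform annotation, 23521 had 1 gene symbol, and each gene was read from its probe set with the highest mean over the 8 arrays. Correlations between arrays over all probe sets were 0.975 to 0.988. Groups were compared with limma 3.58.1 (lmFit, eBayes) in R 4.3.3 on 18877 probe sets whose interquartile range exceeded 0.25. The thresholds followed the study's methods: a Benjamini-Hochberg adjusted p up to 0.05 and a change of 1 log2 unit or more. The fit was tested on simulated data. Ranges and correlations were computed in Python 3.11.15 with pandas 2.3.3 and numpy 2.4.6, after subtracting the mean of each group for correlations.

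The genes and all gene lists were chosen with earlier results of these data known. By rule the text gives the genes with the largest range of each role (up to 2), the 4 with the lowest correlation, up to 2 of each pathway list with the largest range, and the 12 most alike. Other genes were named with their values in view. Alternatives tried were the interquartile filter, the normalization, the probe set rule, the variance model, array weights, the thresholds, a block for the replicate number, and the omission of each tumor. The analysis without the tumors numbered 3 and 4, and without the 2 tumors farthest from the median, was added after seeing the data.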

Additional observations from a re-analysis of the deposited data

Results flagged for a closer look

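Among 44 groups of 4 tumors looked at, those of the named genes and of the mean over the 40 genes, 5 had a tumor whose gap to the nearest other tumor, divided by the range of the group, exceeded Dixon's critical value for 4 samples. Chance exceeds it in about 1 of 20 groups of unselected values. That rate does not apply here, since the genes were listed for varying over these tumors. Most of the named ones were also picked for wide ranges. Over all 40 genes the value was exceeded for 5 among DTC tumors and for 7 among mammary tumors. The ratios are a description, not a test. The ratio was 0.835 for *Ifit1* and 0.845 for *Cmpk2*, both because DTC tumor 3 was low. It was 0.841 for *Irf7*, 0.938 for *Mx2* and 0.9 for *Trim30a*, because mammary tumor 4 was high. The mean over the 40 genes did not exceed the value, with 0.705 for DTC tumor 3 and 0.773 for mammary tumor 4.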

How the results depend on the processing

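With limma, 0 of the interferon-stimulated genes passed the adjusted p under every alternative, leaving out each tumor included, and the lowest adjusted p over them was 0.239. At an unadjusted p of 0.05 in limma, 2 of the other interferon-stimulated list passed in place of 0, against 14.8% of all probe sets tested. The median range over DTC tumors was 0.676 to 2.34 when single tumors were left out, lowest without DTC tumor 3, and 0.179 without the tumors numbered 3 and 4. Over mammary tumors it was 0.484 to 2.09, lowest without mammary tumor 4, and 0.142 without the tumors numbered 3 and 4. The median correlation was 0.97 to 0.99 when single tumors were left out, and 0.880 without the 2 farthest tumors. The median difference was -0.21 to 0.53 when single tumors were left out, 0.29 with array weights and 0.65 without the tumors numbered 3 and 4.

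Single differences, none of which passed the test, changed sign in places. That of *Irf7* became 0.020 with cyclic loess, 0.0098 with quantile normalization applied again and 0.35 with array weights, and that of *Ifih1* became -0.0056 with median centring. With array weights the difference became 0.11 for *Usp18*, 0.089 for *Herc6*, 0.10 for *Ifit1*, 0.18 for *Oasl2*, 0.14 for *Cmpk2*, 0.11 for *Xaf1*, 0.29 for *Iigp1* and 0.13 for *Igtp*. The cause was not tested. When single tumors were left out, the differences ranged from -0.41 to 0.68 for *Irf7*, -0.15 to 0.57 for *Stat2*, -0.30 to 0.47 for *Ifih1*, -0.69 to 0.50 for *Usp18*, -0.63 to 0.38 for *Herc6*, -0.62 to 0.43 for *Ifit1*, -0.33 to 0.53 for *Ifit2*, -0.52 to 0.51 for *Oasl2*, -0.55 to 0.43 for *Cmpk2*, -0.49 to 0.42 for *Xaf1*, -0.51 to 0.75 for *Iigp1*, -0.59 to 0.52 for *Igtp*, -0.19 to 0.52 for *Parp12*, -0.13 to 0.54 for *Parp14*, -0.0079 to 0.99 for *Oas3* and from -0.30 to 0.67 for *Trim30a*.

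Tumors of both groups carry the numbers 1 to 4 in the labels, and in both groups number 4 was highest and number 3 lowest for these genes. Deviations of same-numbered tumors over the 18877 probe sets tested correlated at 0.01, 0.02, 0.17 and 0.19. Tumors 3 and 4 of the DTC group correlated best with their own number, and tumors 1 and 2 did not. With this mixed result the numbers were not taken to pair the tumors. With the replicate number as a block, 7 probe sets were called in place of 25 over all genes and 0 of the 39 interferon-stimulated genes, with the lowest adjusted p of 0.239 for *Irf9*, whose unadjusted p was then 0.0109 in limma. Whether a number marks a shared batch was not tested. Over all probe sets tested, the count of calls was 15 with an interquartile range above 0.5, 57 with a robust trended variance and 46 with array weights.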

Other observations

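DTC tumors 1 and 2, which had close means over the 40 genes, differed for the GBP and IRG GTPases, a pattern noticed after the values were seen and not tested. All 6 genes of that role were higher in DTC tumor 2 than in DTC tumor 1, by 0.29 to 0.85 on the log2 scale with a median of 0.55. The other 34 genes differed by a median of 0.09, with 23 of them higher in DTC tumor 2 and values between -0.44 and 0.78. The 0.78 was that of *Oas2*. Of the 34, 4 of 4 nucleic acid sensors, 8 of 10 antiviral effectors and 0 of 2 Mx GTPase genes were higher in DTC tumor 2. The 8 MHC class I genes were all higher in DTC tumor 2, by a median of 0.54, as were the 7 GBP genes of the other interferon-stimulated list, by a median of 0.37. Over all genes the median difference was -0.01, and 10704 of 22180 genes were higher in DTC tumor 2. *Cxcl9*, an IFN-γ-induced chemokine gene, had 7.57, 9.37, 6.66 and 9.44 in DTC tumors and 6.46, 7.32, 6.59 and 8.72 in mammary tumors, and the difference between DTC tumors 2 and 1, 1.81, was the largest of the 54 genes of its list. Both tumors are single arrays, so this difference has no replicate check.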
